A study of Mus musculus with 17 samples.

Results

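The 10 genes described here encode the subunits of the cytosolic chaperonin CCT, also called TRiC (Tcp1, Cct2, Cct3, Cct4, Cct5, Cct6a, Cct7 and Cct8), and of the mitochondrial chaperonin, which is Hsp60 (Hspd1) with its lid Hsp10 (Hspe1). They were chosen by gene symbol among the 21848 genes counted in germinal centre (GC) B cells of the mouse, and all 10 were counted in every mouse. The subunits of CCT form a double ring of 8 different proteins that closes over an unfolded client and releases it folded. Actin and tubulin cannot fold without it, and neither can several propeller-shaped regulators of mitosis such as Cdc20, so CCT is needed by any dividing cell. Prefoldin hands clients to CCT and phosducin-like proteins modulate it. Hsp60 and Hsp10 do the same work in the mitochondrial matrix for proteins that have just been imported. GC B cells that receive help from T cells grow, move to the dark zone and divide several times.

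The cells came from draining lymph nodes of mice of both sexes, between 5 and 12 weeks old. B1-8hi B cells, which bind the hapten NP (Igh B1-8hi/+, Col1a1 tetO-H2B-mCherry, Vav-tTA, CD45.2/2), were transferred into CD45.1/1 recipients that had been primed with ovalbumin (OVA), and the recipients were immunized in the footpad with NP-OVA in alum. Some transferred cells express the surface receptor DEC-205 and the others are Ly75-/- and lack it. An antibody to DEC-205 fused to OVA (anti-DEC-OVA, 5 µg), given 7 days after immunization, makes the DEC-205 expressing cells present OVA to T cells and enter a burst of division. The 5 groups of the time course were mice analysed at 0 h (9 mice, no antibody), at 48 h without (6 mice) or with anti-DEC-OVA (9 mice), and at 72 h without (8 mice) or with it (7 mice). They were run as a larger experiment of 25 mice and a smaller one of 14. A further 7 mice had received anti-DEC-OVA 72 h earlier. Their GC B cells carried a CDK2 reporter (Rosa26 DHB-tdTomato, in some with H2B-GFP) that leaves the nucleus when CDK2 is active, and were sorted by image into cells with the reporter in the cytoplasm (C, CDK2hi) or in the nucleus (N, CDK2low). The labels say that live GC cells were sorted, and the study's text on mutation loads in the time course speaks of cells that express DEC-205. No split by DEC-205 was made here, and 9208 of 13625 cells kept in the larger and 4369 of 10073 in the smaller experiment had a B1-8hi receptor in the deposited contigs.

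The reference positions of the genes and a short stretch of promoter are given first, because the promoter windows of Hspd1 and Hspe1 overlap. On the GRCm39 assembly (GENCODE), Hspd1 lies on the minus strand of chr1:55116989-55171038 and Hspe1 on the plus strand of chr1:55127260-55130476. They lie on opposite strands, and the RefSeq starts of Hspd1 fall 95 bases after and 216 bases before that of Hspe1 on the plus strand. The CCT subunits are scattered over 8 chromosomes, with Tcp1 on chr17:13134588-13163066, Cct2 on chr10:116886897-116899744, Cct3 on chr3:88204289-88230423, Cct4 on chr11:22940379-22956236, Cct5 on chr15:31588834-31601959, Cct6a on chr5:129864049-129875406, Cct7 on chr6:85428439-85445708 and Cct8 on chr16:87279168-87292801. RefSeq promoter windows, which reach from 250 bases before a start to 50 after it, were found for 9 of the 10 genes (the table uses GRCm38.p6, and each stretch was matched to GRCm39). A heat shock element (3 half-sites, TTC and GAA in turn with 2 bases between them, either strand) stood in the windows of Hspd1 and Hspe1, which overlap and hold the same run of letters, and in 0.603% of all 32851 windows. The E-box CACGTG stood in 1 of the 9, Hspd1, and in 7.15% of windows. CCAAT or its complement stood in 5 of the 9 (Tcp1, Cct3, Cct6a, Cct7 and Hspd1) and in 37.4% of windows. The stretches are shown because they hold these matches, with the match in capitals. In the first, overlapping matches of the heat shock element run together.
Hspe1, heat shock element, chr1:55127212-55127241, plus strand: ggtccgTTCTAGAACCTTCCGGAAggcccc
Hspd1, E-box, chr1:55127465-55127494, minus strand: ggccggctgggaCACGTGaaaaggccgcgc
Tcp1, CCAAT, chr17:13135071-13135100, plus strand: tatccctggctcaCCAATcaccgcagacgt
Cct3, CCAAT, chr3:88204396-88204425, plus strand: aatgagtttggtgATTGGcggcacttcaga
Cct6a, CCAAT, chr5:129864378-129864407, plus strand: ggagggtcgccacCCAATggaggtgctctg
Cct7, CCAAT, chr6:85428379-85428408, plus strand: gaaccgggcgctgATTGGccaaaactctta
The annotation places the first stretch in exons of Hspd1, the second in exons of Hspe1, that of Cct3 in its own exons, that of Tcp1 in an exon of Mrpl18, that of Cct6a in exons of Cct6a and Psph, and that of Cct7 in an exon of Pradc1. A match is a description of letters, not of a bound site.

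Between 292 and 1045 cells per mouse in the time course and between 278 and 1679 per mouse and population in the sorted cells were summed, which gave 272 to 7245 and 527 to 9282 unique molecules (UMIs) of a member gene per sum. Median depth per cell was 10004 to 14467 UMIs in treated mice at 48 h and 5030 to 7455 in untreated mice at 48 h. Of the GC B cell markers all 6 were present, and their summed level lay between 1886 and 3450 CPM (UMIs of a gene per 1e+06 UMIs of the mouse) in the time course. Marker sums of T cells, naive or memory B cells and the light zone separated the groups at 48 h, and those of plasma and myeloid cells overlapped. Dark zone marker sums also overlapped, at 1304–1524 CPM in treated and 1123–1311 CPM in untreated mice. Gene by gene at 48 h (edgeR), 5 of 7 dark zone markers were higher in treated mice and 1 lower. Lower were 8 of 8 light zone, 4 of 4 T cell and 4 of 6 naive or memory B cell markers. Of 6 GC B cell markers 2 were higher and 3 lower, and of 4 plasma cell markers 1 was higher and 1 lower. Over all genes tested, 26.3% were higher and 21.1% lower. Cells with a dark zone score above their light zone score made up 68.0–78.2% in treated and 40.0–49.0% in untreated mice at 48 h. The dark zone list holds Cxcr4, Gcsam, Foxp1 and Mme and the mitotic genes Ccnb1, Aurka, Plk1 and Kif11. Its sums and scores therefore cannot separate zone from cell cycle phase, here and below. Summed T cell markers (6 of 7 in the files, none at 0 in all mice) were 47.3–65.6 CPM in treated and 67.6–106 CPM in untreated mice at 48 h, those of naive or memory B cells (6 of 6) 1231–1359 against 1729–1962 CPM, those of the light zone (8 of 8) 365–515 against 781–941 CPM, those of plasma cells (5 of 5) 1063–1848 against 680–1326 CPM, and those of myeloid cells (5 of 5) 5.34–20.2 against 8.56–22.1 CPM. Their part in the results below was not tested. In sums of this kind, fewer cells of a type and less RNA per cell cannot be told apart. The CCT paralogs were rare: Cct6b had 270 UMIs in all and Cct8l1 had 1.

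At 48 h after anti-DEC-OVA all 10 chaperonin genes were higher in treated than in untreated mice (edgeR quasi-likelihood test, Benjamini-Hochberg adjusted p under 0.05). The background is wide: 26.3% of the 10220 genes tested were higher and 47.4% differed in either direction. The 8 CCT subunits had log2 fold changes between 0.26 for Cct4 and 0.43 for Cct6a and a median of 0.38, where the median of all genes was 0.01. Summed over the 8 subunits, CCT made up 1982, 2165 and 2450 CPM (lowest, median and highest of 6) in untreated mice and 2526, 2715 and 2899 CPM in the 9 treated mice, so every treated mouse lay above every untreated one.

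Tcp1, the first CCT subunit to be described, was at 409, 423 and 467 CPM in untreated mice at 48 h and at 518, 542 and 558 CPM in treated mice. No treated mouse overlapped any mouse of the other 4 groups. The fitted difference was 0.40 ± 0.05 (log2, SE), or 1.32-fold, with an adjusted p of 1.57e-08 by the edgeR quasi-likelihood test.

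Cct2, Cct3 and Cct8 showed the same separation. Cct2 was at 344, 364 and 427 CPM without and 429, 442 and 483 CPM with treatment, a log2 difference of 0.35 ± 0.05 (edgeR adjusted p = 5.17e-07). Cct3 was at 172, 204 and 233 CPM against 235, 254 and 280 CPM, a log2 difference of 0.41 ± 0.06 (edgeR adjusted p = 1.13e-06). Cct8 was at 245, 263 and 302 CPM against 314, 353 and 375 CPM, a log2 difference of 0.42 ± 0.07 (edgeR adjusted p = 1.60e-06). These 3 and Tcp1 were the 4 members whose treated mice at 48 h lay above all mice of all other groups, as they did for 132 (1.29%) of the 10220 genes tested.

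The other CCT subunits were also called higher, with some overlap between the groups. Cct7 was at 186, 199.5 and 233 CPM without and 226, 248 and 264 CPM with treatment, and 8 of 9 treated mice lay above all 6 untreated mice, the exception falling below the highest untreated mouse. Cct5 went from 282, 331 and 364 CPM to 364, 396 and 425 CPM and its groups met at their edges. Cct4 had the smallest difference, 0.26 ± 0.05 on the log2 scale, with 171, 189 and 205 CPM against 202, 216 and 228 CPM, and 7 of 9 treated mice above all untreated ones. Cct6a varied most among the CCT subunits, with 162, 209 and 264 CPM against 217, 261 and 338 CPM, and 4 of 9 treated mice lay above all untreated ones although its fitted difference, 0.43 ± 0.10, was the largest of the 8 (edgeR adjusted p = 0.000304).

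**Figure D1:**
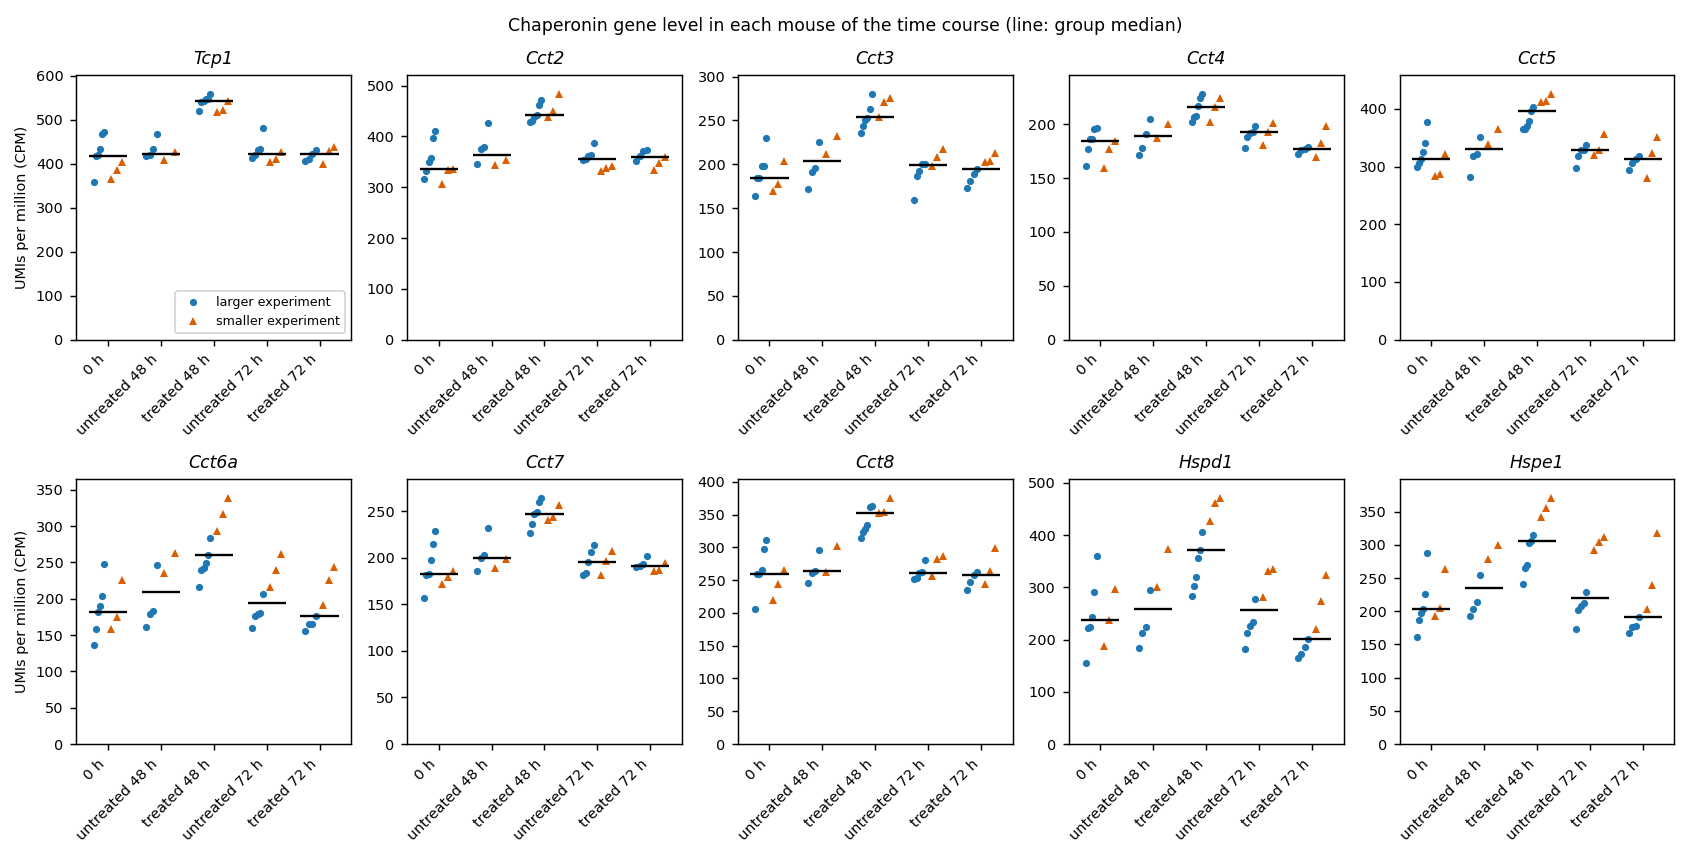
Level of each chaperonin gene (y axis, CPM from 0) in each mouse of the 5 groups of the time course (x axis), with circles for the larger and triangles for the smaller experiment and a line at the group median. The 9 treated mice at 48 h have the highest group median in all 10 panels, an order whose share over all genes was not counted. For Cct5, Cct6a, Hspd1 and Hspe1 the 3 triangles of that group lie above its 6 circles.

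Hspd1, the Hsp60 subunit, rose most among the 10 members, by 0.59 ± 0.13 on the log2 scale or 1.51-fold (edgeR adjusted p = 0.000267). Over all mice its groups overlapped, with 184, 259 and 373 CPM in untreated and 283, 372 and 470 CPM in treated mice. The experiments differed in level. Within the smaller experiment the untreated mice had 301 and 373 CPM and the treated mice 426, 462 and 470 CPM, with no overlap. With so few mice, treated lay above untreated for all 10 members and for 21% of all genes tested there, and below for 35.3%. Within the larger one the untreated mice had 184, 213, 223 and 295 CPM, and the 6 treated mice 283, 338 and 407 CPM, so that 1 untreated mouse lay above 1 treated mouse. Hspe1, which caps the Hsp60 ring, followed with 193, 235 and 299 CPM against 242, 307 and 370 CPM and a log2 difference of 0.43 ± 0.10 (edgeR adjusted p = 0.000361). In the smaller experiment treated mice at 48 h lay above all other groups for all 10 members and for 9.3% of all genes tested, and in the larger one for 4 members and 4.29% of all genes.

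Fitted in the larger experiment alone, all 10 members were called higher (18.2% of all genes higher), and in the smaller alone 8 (10.7% of all genes), where Cct4 (adjusted p = 0.0714) and Hspe1 (adjusted p = 0.0551) missed the threshold of the edgeR test. All 10 were also called higher after each cell had been thinned to 1 depth per experiment (17.8% of all genes higher) and in cells that carried the B1-8hi receptor alone (18.1%). With thinned cells the difference of Cct4 was 0.17 instead of 0.26. Scaling by library totals kept all 10 higher, although it turned the split of all calls from 2683 higher and 2160 lower to 1888 higher and 3079 lower.

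Counted per cell rather than as CPM, the ratios between the groups were larger. CCT UMIs per cell had medians of 17.9 in untreated and 40.4 in treated mice at 48 h, with ranges of 15.97–24.9 and 35.9–47.7. Over the 10 members the ratio of the group medians lay between 2.06 and 2.75 in UMIs per cell and between 1.14 and 1.44 in CPM. Treated and untreated cells of an experiment shared 1 gene-expression library, and so its sequencing. Median UMIs per cell were 12807.5–14467 in treated and 6640.5–7455 in untreated mice at 48 h in the larger experiment. In the smaller one they were 10004–12545 and 5030–5355. The per-cell value moves with capture and with depth per cell as well as with RNA content, and these cannot be told apart.

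At 72 h no member passed the test between treated and untreated mice: 0 of 10 were called, against 8.55% of all genes (edgeR, 874 calls, and 2199 genes at an unadjusted p under 0.05). Among members, Hspd1 and Hspe1 had unadjusted p-values under 0.05 in this fit, 0.0436 and 0.0270. Summed CCT was 2001, 2145 and 2306 CPM in untreated and 2010, 2069 and 2276 CPM in treated mice. Log2 differences of the CCT subunits lay between -0.12 ± 0.10 for Cct6a and 0.01 ± 0.05 for Cct2. Hspd1 was at 183, 256 and 336 CPM in untreated and 164, 201 and 323 CPM in treated mice, a log2 difference of -0.28 ± 0.13 with an adjusted p of 0.213 by edgeR. Hspe1 stood at -0.23 ± 0.10 (edgeR adjusted p = 0.162). A fit of these groups alone called both lower (edgeR adjusted p of 0.0298 and 0.0428, with 3.84% of all genes lower), and leaving out mouse E2 of the treated group called Hspe1 lower (edgeR adjusted p = 0.0395, with 4.65% of all genes lower), while with thinned cells the difference of Hspd1 shrank to -0.12 and that of Hspe1 to -0.20, with no call for either.

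Set directly against each other, the treated groups gave differences in the same direction. All 10 members were higher at 48 h than at 72 h after anti-DEC-OVA (background 26.8% higher and 49.1% either way), with log2 differences from 0.36 for Cct4 to 0.93 for Hspd1. Thinning the cells kept all 10 calls, with 1496 of the 9310 genes tested there higher, but lowered Cct4 to 0.20. Hspd1 fell from a median of 372 to 201 CPM and Hspe1 from 307 to 191 CPM, while Tcp1 fell from 542 to 421 CPM. Within each experiment, treated mice at 48 h lay above all those at 72 h for all 10 members, and for 12.8% of all genes tested in the larger and 15.2% in the smaller. Over both experiments together this held for 7 members and 3.87% of all genes, while Cct6a, Hspd1 and Hspe1 overlapped. The treated groups also separated in other measures. Summed light zone markers were at 365–515 CPM at 48 h and 670–879 CPM at 72 h. Summed markers of naive or memory B cells were at 1231–1359 against 1706–2034 CPM, and T cell markers at 47.3–65.6 against 67.8–92.8 CPM. Tested gene by gene, 8 of 8 light zone markers were lower at 48 h. Of 6 markers of naive or memory B cells 2 were lower and 1 higher, and of 4 T cell markers 1 was lower. Median depth was at 10004–14467 against 5495–8673 UMIs per cell, and the G1 class at 10.5–18.6% against 24.0–47.2% of cells. Cells with a dark zone score above their light zone score made up 68.0–78.2% against 43.5–56.7%. The part of these measures in the members' differences was not tested. Scaling by library totals turned the split of all calls here from 2738 higher and 2281 lower to 1832 higher and 3514 lower.

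The treatment effect at 48 h was itself larger than that at 72 h for all 10 members by the test of the difference (edgeR, background 18.5% in that direction and 31.5% either way, with 1887 higher and 1330 lower calls that became 1258 and 2087 with library totals). The difference of the effects was 0.87 ± 0.19 for Hspd1, 0.66 ± 0.14 for Hspe1 and 0.55 ± 0.14 for Cct6a, and between 0.34 and 0.47 for the remaining CCT subunits. For Cct2 it lost its call when cells were thinned, at 0.18 (edgeR adjusted p = 0.0906), or the larger experiment stood alone, at 0.25 (edgeR adjusted p = 0.0545), against 0.34 over all mice. In the smaller experiment alone it lost its call for Cct4 at 0.29, against 0.35, and for Cct6a at 0.54, against 0.55 (edgeR adjusted p of 0.119 and 0.0548). Cct4 kept its call with thinned cells at 0.23.

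**Figure D2:**
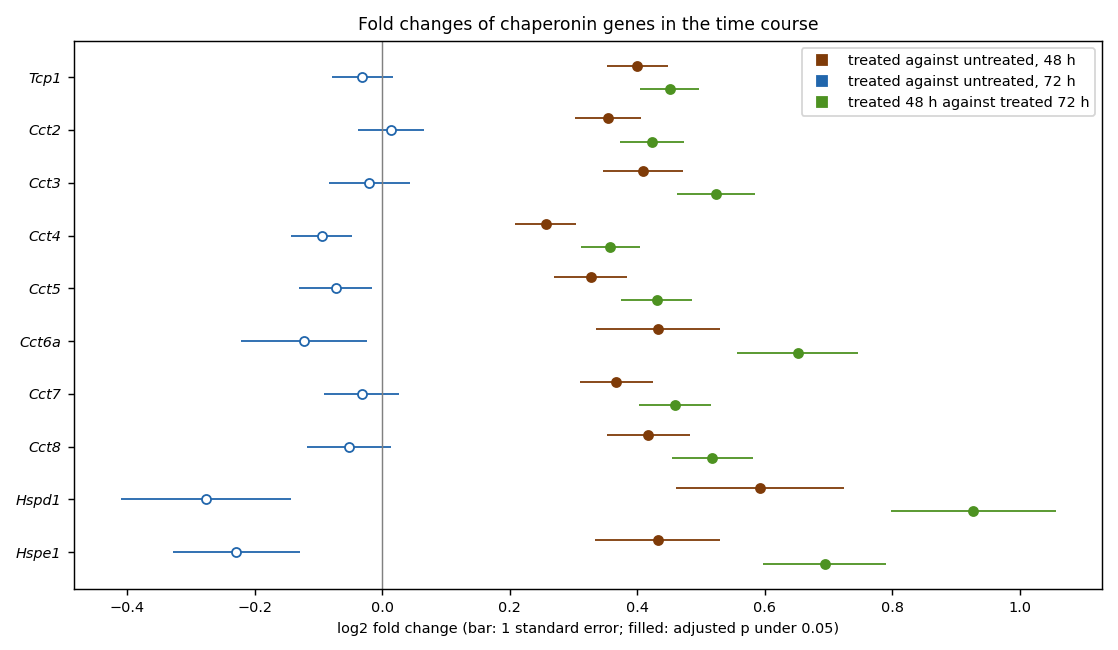
Log2 fold changes (x axis) of the 10 chaperonin genes (y axis) for treated against untreated mice at 48 h and 72 h and for treated mice at 48 h against 72 h, with bars of 1 standard error and filled points where the adjusted p was under 0.05. Both 48 h series lie right of 0 for all genes, and the 72 h series lies around 0, with Hspd1 at -0.28 and Hspe1 at -0.23 farthest left.

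Untreated GCs gave no call among the members over the same days. Between 0 h and 48 h without treatment 0 of 10 members were called (0.127% of all genes, 13 calls by edgeR, 23 by DESeq2 and 961 genes at an unadjusted p under 0.05), and between 0 h and 72 h 0 of 10 (4.41% of all genes, 183 higher and 268 lower, or 202 and 188 with library totals). Members' log2 differences stayed between 0.05 and 0.15 for the first and between -0.00 and 0.11 for the second, and no member had an unadjusted p under 0.05 in either. In the order of group medians the treated mice at 48 h came first for 10 of 10 members. The share of all genes with that order was not counted, so the count cannot be read as particular to the members. The members did not differ past the threshold between untreated 48 h and 0 h, untreated 72 h and 0 h, or treated and untreated mice at 72 h. The lowest median belonged to 0 h for 5 members and to treated 72 h for the other 5. One mouse at 0 h (M06, 312 cells) had 61.9% of cells in G1 and the highest myeloid and plasma cell marker sums, 145 and 2395 CPM, and it gave the lowest 0 h level of 7 members. Leaving out any 1 mouse, this one included, left 0 of 10 members called.

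Shares of the CCT subunits were also compared. As a share of all CCT UMIs of a mouse, Tcp1 had a median of 19.3% in untreated and 19.6% in treated mice at 48 h, Cct5 14.9% and 14.4%, and Cct8 12.2% and 12.8%. Cct4 was the member whose share separated the groups, with 8.29–8.87% in untreated and 7.43–8.18% in treated mice at 48 h. For these shares no test was made, and no matching count was made for other genes.

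Shares of cells by cell cycle phase differed between these groups, so the 48 h comparison was repeated within classes of cells. Each cell was put in a G1, S or G2M class by scores of S and G2/M gene lists that hold no member. A class is a range of a score, and 615 cells of the larger and 574 of the smaller experiment lay within 0.05 of the limit of the G1 class. Cells near the limit between the S and G2M classes were not counted. The G1 class held 10.5–18.6% of cells in treated and 37.5–50.6% in untreated mice at 48 h. The members' levels varied over the classes: in untreated mice at 48 h, Hspd1 had medians of 111 CPM in the G1, 401 in the S and 239 in the G2M class, and Tcp1 303, 494 and 469 CPM.

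In the G1 class 0 of 10 members were called (edgeR, background 4.85%, with 412 calls). This class had 70–139 cells per treated and 274–314 per untreated mouse at 48 h, and the members' standard errors were 0.06 to 0.10 (log2). Markers of other cells also differed in this class, where 2 of 4 plasma cell markers tested were higher (median log2 difference 1.34), as were 1 of 2 myeloid markers (1.79), 1 of 6 markers of naive or memory B cells (0.54, with 1 lower) and 8 of 15 endoplasmic reticulum chaperones (0.58), while 2 of 7 light zone markers were lower, and their part in the members' values was not tested. The members' log2 differences lay between 0.05 for Cct8 and 0.17 for Hspe1, and Cct2 and Cct5 had unadjusted p-values of 0.0348 and 0.0372. Hspd1 in this class had 104, 111 and 144 CPM in untreated and 97.5, 119 and 149 CPM in treated mice, which overlap. In S class cells 5 of 10 were higher (Tcp1, Cct2, Cct3, Cct7 and Cct8, against 8.48% of all genes higher), with log2 differences of 0.19 to 0.24. That count was 3 under scaling by library totals and 1, Tcp1, in the larger experiment alone (2.14% of all genes higher there). In that experiment Cct3 and Cct8 stood at 0.18 and 0.19, against 0.21 and 0.22 over all mice. Cct2 and Cct7 stood at 0.11 and 0.11 there, against 0.19 and 0.19. In G2M class cells all 10 were higher (against 10% higher and 18.8% either way), while library totals left 9, without Cct4 (adjusted p = 0.0652), and the larger experiment alone left 8, without Cct2 and Cct7 (adjusted p of 0.0544 and 0.0907, all edgeR), against 4.32% of all genes higher there. The differences in this class were led by Hspd1 with 0.54 ± 0.14 (edgeR adjusted p = 0.00406) and Hspe1 with 0.41 ± 0.12 (edgeR adjusted p = 0.0122). Tcp1 in this class rose from 433, 469 and 499 CPM to 510, 550 and 560 CPM, without overlap. Library totals turned the split of all calls from 259 higher and 153 lower to 226 and 206 in the G1 class, from 775 and 711 to 529 and 937 in the S class, and from 935 and 818 to 658 and 1127 in the G2M class. In the S class 12 of 15 endoplasmic reticulum chaperones were lower (median log2 difference -0.29), as were 6 of 7 light zone markers tested, 2 of 5 markers of naive or memory B cells and the 1 T cell marker tested, while plasma cell markers gave 1 higher and 1 lower of 2. In the G2M class 5 of 7 light zone markers, 3 of 5 markers of naive or memory B cells, the 1 T cell marker tested and 1 of 15 endoplasmic reticulum chaperones were lower, and plasma cell markers gave 1 higher and 1 lower of 3. The part of these markers in the members' values was not tested. Whether the effect differed between classes was not tested.

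**Figure D3:**
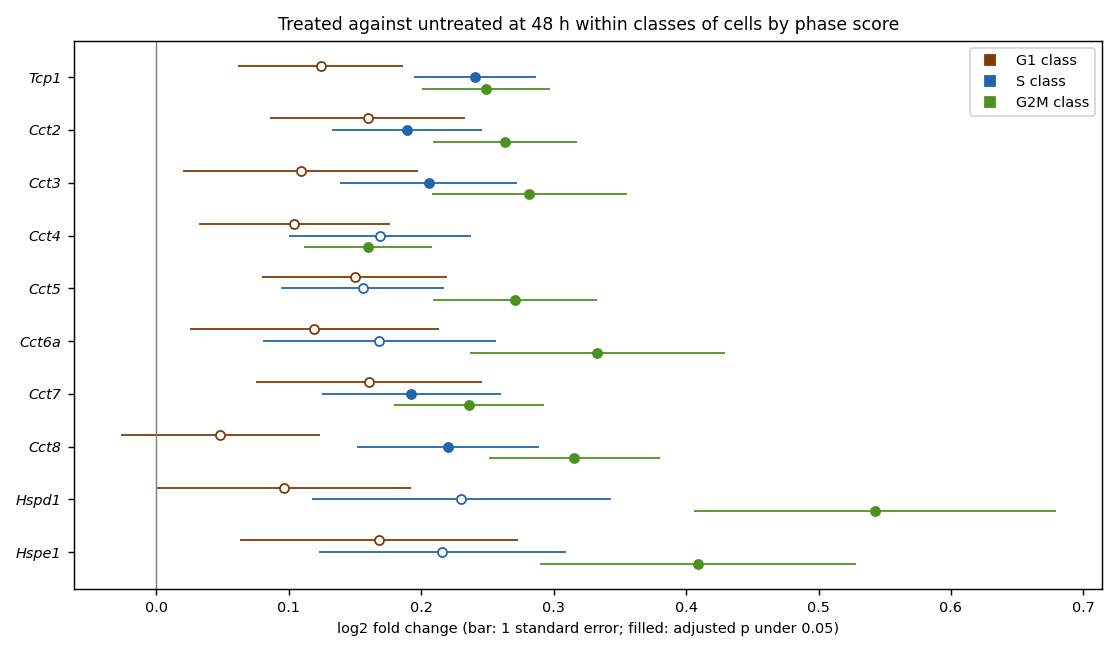
Log2 fold change of treated against untreated mice at 48 h (x axis) for the 10 chaperonin genes (y axis) in G1, S and G2M class cells, with bars of 1 standard error and filled points where the adjusted p was under 0.05. The 10 G1 points are open and lie between 0.05 and 0.17, 5 of the S points are filled, and all 10 G2M points are filled.

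Genes that work with the chaperonins were read from fixed lists in the same 48 h fit, against 26.3% of all genes higher and 21.1% lower. Of 13 CCT cofactors 9 were higher and 2 lower. Rpap3, a scaffold of the R2TP complex, rose by 0.34 ± 0.06, and Uxt, Vbp1 and Pfdn4, which are prefoldin-type subunits, by 0.33, 0.29 and 0.28 on the log2 scale (all edgeR). Among the classic clients, 7 of 11 actins and tubulins were higher and 1 lower, led by Tubb4b with 0.60 ± 0.09, Tuba1c with 0.53, Tuba1b with 0.50 and the centrosomal Tubg1 with 0.44. Of 10 other clients 5 were higher and 2 lower. Cdc20 and Fzr1, the activators of the anaphase-promoting complex, rose by 0.54 and 0.24, Gnb5 rose by 0.50 and Vhl fell by 0.28. The tubulin folding cofactors, which act after CCT, gave 1 higher (Arl2, 0.26) and 2 lower (Tbcel, -0.23, and Tbcd, -0.19) of 7.

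Mitochondrial partners were read in the same way. Of 14 other mitochondrial chaperones and proteases 9 were higher and 0 lower, with the disaggregase Clpb at 0.44 ± 0.10, the matrix Hsp70 Hspa9 at 0.41, the protease Htra2 at 0.30 and the nucleotide exchange factor Grpel1 at 0.30. Of 19 import genes 16 were higher and 0 lower, among them Timm8a1 (0.41), the channel subunits Timm17a (0.40) and Timm23 (0.36) and the motor subunit Pam16 (0.36). The 6 genes listed as mitochondrial stress factors gave 0 higher and 1 lower, Ddit3, which encodes the transcription factor CHOP and fell by 0.58. That list is not specific to mitochondria, and stress of mitochondria was not tested. In the cytosol, 15 of 20 genes of the Hsp70 and Hsp90 system were higher and 0 lower, led by Hsp90aa1 with 0.62 ± 0.10 and its co-chaperone Ptges3 with 0.53, then Hsp90ab1 with 0.49 and Stip1 with 0.44. Of 8 genes of the heat shock response 4 were expressed enough to test, the heat-inducible Dnajb1 and Bag3 and the transcription factors Hsf1 and Hsf2, and none of those was called. Of 15 chaperones of the endoplasmic reticulum, 1 was higher (Canx, 0.13) and 2 lower (Dnajb9, -0.44, and Hspa5, -0.21). At 72 h, when 8.55% of all genes were called, the partner lists gave few calls. Higher were 2 actins and tubulins, 1 other client and 1 gene of the Hsp70 and Hsp90 system, and lower were 1 mitochondrial chaperone or protease and 1 endoplasmic reticulum chaperone. The CCT cofactors, tubulin folding cofactors, import genes, mitochondrial stress factors and heat shock genes had 0 calls.

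**Figure D4:**
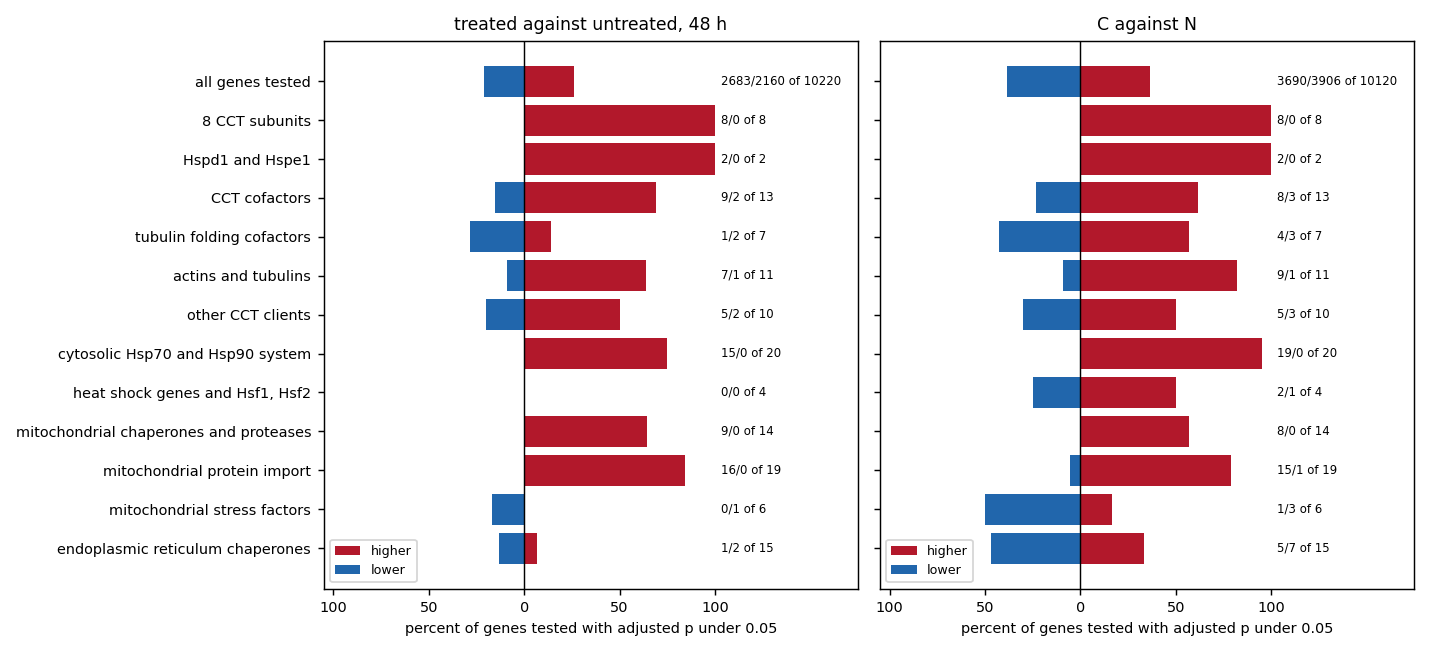
Percent of the tested genes of each list (y axis) that were higher (red, to the right) or lower (blue, to the left) with an adjusted p under 0.05, for treated against untreated mice at 48 h and for C against N, with the counts beside each bar as higher/lower of tested. At 48 h the CCT subunits, the mitochondrial chaperonin genes and the import genes reach farthest right, and the endoplasmic reticulum and tubulin cofactor lists lie on both sides of 0.

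Over the 39 mice of the time course the members kept close company. Pearson correlations used log2 CPM scaled by TMM factors, after the mean of each experiment was taken out. They lay between 0.898 (Cct2 with Cct4) and 0.971 (Tcp1 with Cct8) over the 28 pairs of CCT subunits. Hspd1 correlated with Hspe1 at 0.958 and with CCT subunits at 0.867 to 0.964. These are descriptions over mice that share libraries and differ in group and depth, with no test. Of 4987 genes of sufficient level, those most like the mean of the CCT subunits were Hsp90ab1 (0.983), Set (0.983), Serbp1 (0.980), Pgam1 (0.978), Ldha (0.976), Eif5a (0.974), Eif3b (0.974) and Pebp1 (0.974). Those most like Hspd1 were Ptges3 (0.972), Ybx3 (0.971), Rsl1d1 (0.963), Ppa1 (0.962), Timm8a1 (0.961), Npm1 (0.961), Pa2g4 (0.960) and Serbp1 (0.959).

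The second comparison set cells with CDK2 active (C) against cells with CDK2 low (N) from the same 7 treated mice. All 10 members were higher in C by the edgeR test with mouse as a block, but so were 36.5% of the 10120 genes tested, and 75.1% differed in either direction. C and N were also separate libraries, so population and library cannot be told apart. Summed GC B cell markers were 3068–3358 CPM in C and 1643–1781 CPM in N, and dark zone markers 1230–1411 against 882–1021 CPM. Gene by gene, however, 2 of 6 GC B cell markers were higher in C and 4 lower by edgeR. Their median log2 difference was -0.17 and the highest 2.41, so most of these markers did not share the rise of their sum. Of 7 dark zone markers tested, 5 were higher in C and 1 lower. Summed light zone markers were 428–574 CPM in C and 930–1240 CPM in N, T cell markers 44.1–66.8 against 61.2–142 CPM, those of naive or memory B cells 1270–1489 against 2133–2335 CPM, myeloid markers 4.02–6.30 against 7.64–21.2 CPM and plasma cell markers 789–982 against 738–976 CPM, and their part in the result was not tested. The G1 class held 4.25–9.45% of C and 53.4–63.2% of N cells. Hspd1 again moved most, with 189, 207 and 222 CPM in C and 129, 146 and 168 CPM in N. C was higher in 7 of 7 mice, by ratios of 1.31 to 1.60, and the fitted log2 difference was 0.69 ± 0.03 (edgeR adjusted p = 3.17e-16).

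Among the CCT subunits the differences ranged from 0.23 to 0.55 on the log2 scale. Cct6a (156, 174 and 186 CPM in C against 127, 132 and 144 in N), Cct7 (191, 198 and 206 against 145, 160 and 178), Cct3 (180, 185 and 202 against 146, 154 and 176), Tcp1 (415, 438 and 455 against 345, 377 and 396) and Cct8 (228, 235 and 252 against 196, 202 and 222) were higher in C in 7 of 7 mice. With Hspd1 that makes 6 members, and 2021 of the 10120 genes tested had a higher CPM in C in all 7 mice, while 4829 had a lower one. The log2 differences of these 5 subunits were 0.55, 0.51, 0.47, 0.41 and 0.40. Cct4 was higher in 6 of 7 mice, with 140, 149 and 154 CPM against 132, 140 and 147, and a log2 difference of 0.27. Cct2 and Cct5 differed least, with log2 differences of 0.24 ± 0.03 and 0.23 ± 0.03, and their CPM was higher in C in 5 of 7 mice. Hspe1 was also higher in 5 of 7 mice, by 0.31 ± 0.03, with 193, 206 and 219 CPM in C against 170, 195 and 216 in N, and its populations overlapped.

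With library totals in place of TMM factors the log2 difference of each of the 10 members was 0.20 lower. Tcp1 went from 0.41 to 0.22, Cct3 from 0.47 to 0.27, Cct6a from 0.55 to 0.35, Cct4 from 0.27 to 0.07 and Hspe1 from 0.31 to 0.12. The median of all genes lay at -0.02 with TMM factors and at -0.22 with library totals, which turned the split of calls from 3690 higher and 3906 lower to 2411 higher and 5822 lower. With library totals 8 of 10 members were called higher, while Cct2 stood at 0.04 (adjusted p = 0.138) and Cct5 at 0.03 (adjusted p = 0.216, both edgeR). Hspd1 stood at 0.49 under that scaling. Per cell, N cells held more UMIs (medians of 10563 to 14838 per mouse against 8939 to 11754 in C), and the median ratio of members' UMIs per cell in C over N lay between 0.839 for Cct5 and 1.13 for Hspd1.

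Shares within CCT do not depend on the scaling. Cct6a made up 8.17–8.96% of CCT UMIs in C and 7.30–7.92% in N, and Cct7 9.73–10.1% against 8.72–9.45%. Cct2 made up 16.2–17.0% in C and 17.2–19.0% in N, and Cct5 14.1–14.6% against 15.6–16.5%. These 4 subunits did not overlap between C and N, while Tcp1 (21.3–22.2% against 20.7–21.5%), Cct3 (9.10–9.73% against 8.44–9.35%), Cct4 (6.95–7.64% against 7.35–8.50%) and Cct8 (11.4–12.3% against 11.1–12.0%) did. No test was made on the shares, and no matching count was made for other genes. Shares do not remove the split of C and N into separate libraries, between which 75.1% of all genes differed.

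**Figure D5:**
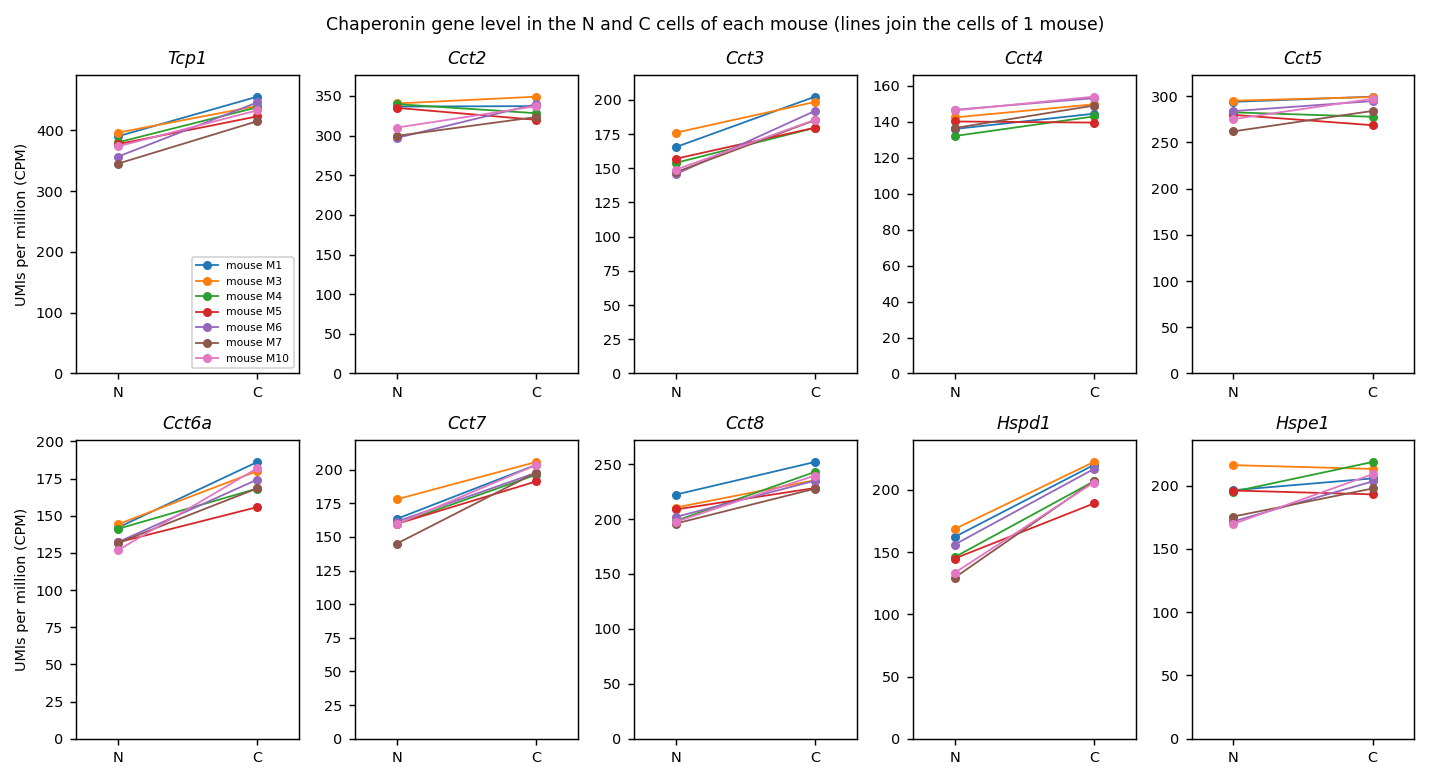
Level of each chaperonin gene (y axis, CPM from 0) in the N and C cells (x axis) of 7 mice, with a line joining the populations of 1 mouse. All 7 lines rise from N to C for Tcp1, Cct3, Cct6a, Cct7, Cct8 and Hspd1, 6 of 7 rise for Cct4, and 5 of 7 rise for Cct2, Cct5 and Hspe1.

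The partner lists were read against 36.5% of all genes higher and 38.6% lower in C. Of the actins and tubulins 9 of 11 were higher and 1 lower, with Tuba1b at 2.45 ± 0.04, Tubb4b at 2.37, Tuba1c at 2.33 and Tubb5 at 1.98 on the log2 scale. Of the other clients 5 were higher and 3 lower of 10, with Cdc20 at 2.68 ± 0.09, Fzr1 at 1.02, Hdac3 at 0.38 and Vhl at -0.42. Of the 13 CCT cofactors 8 were higher and 3 lower, led by the prefoldin subunit Pfdn6 with 0.62, then Uxt with 0.56, Vbp1 with 0.50 and Rpap3 with 0.50. The tubulin folding cofactors were split, 4 higher and 3 lower of 7, with Tbcel at -0.77, Arl2 at 0.63, Tbcd at -0.39 and Tbcc at 0.34.

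In the other compartments, 19 of 20 genes of the cytosolic Hsp70 and Hsp90 system were higher in C and 0 lower, with Hsp90aa1 at 1.38 ± 0.03, Ptges3 at 0.94, Stip1 at 0.86 and Fkbp4 at 0.74. Mitochondrial import genes gave 15 higher and 1 lower of 19 (Timm8a1 0.88, Tomm7 0.61, Dnajc19 0.60 and Timm50 0.55), and the mitochondrial chaperones and proteases 8 higher and 0 lower of 14 (Lonp1 0.56, Htra2 0.53, Grpel1 0.49 and Trap1 0.44). The genes listed as mitochondrial stress factors, which are not specific to mitochondria, gave 3 lower (Trib3 -1.20, Chac1 -0.89 and Ddit3 -0.49) and 1 higher (Atf4 0.08) of 6. Of the 4 genes of the heat shock response tested, the heat-inducible Dnajb1 (0.65) and Bag3 (0.57) were higher, and Hsf1 (-0.26), a transcription factor of that response and not itself a heat-inducible gene, was lower. Endoplasmic reticulum chaperones were split, 5 higher and 7 lower of 15, with Calr at -0.45, Creld2 at 0.40, Hyou1 at -0.39 and Pdia4 at -0.38. Values near 0 in these lists move with the scaling described above.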

How the data were processed

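Single-cell 5′ libraries of sorted GC B cells were read as UMI counts per gene and cell, which the authors deposited after alignment to mm39 (Cell Ranger 8.0.1 per the file headers, while the submitters' notes name Cell Ranger 6.0.1 and Seurat 5.1.0), together with hashtag counts and receptor contigs. Another pool, made with Cell Ranger 7.1.0, was not used here. Cells were assigned to mice with HTODemux (Seurat 5.3.0, positive quantile 0.99) and kept if they had 200 genes or more and mitochondrial UMIs below 10%. Of 16424, 18233, 9358 and 5206 cells in the larger experiment, the smaller experiment, C and N, 13625, 10073, 7448 and 4385 were kept. Cells with more hashtags than a mouse carries (1936, 2705, 975 and 507) were left out as doublets, and cells with fewer hashtags (428, 804, 480 and 43) or with another combination (84, 1537, 154 and 178) were left out as unassigned. Doublets within a mouse were not searched for, and 3114 assigned cells of the smaller experiment were over the mitochondrial limit. Libraries shared between 6 and 94 cell barcodes.

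UMIs were summed per mouse (1.98e+06 to 1.34e+07 in the time course and 3.99e+06 to 2.04e+07 in C and N) and tested with edgeR 4.0.16 in R 4.3.3 (quasi-likelihood test, TMM, filterByExpr, Benjamini-Hochberg over all genes tested, threshold 0.05). The time course was fitted over all 39 mice with the experiment as a term, and C against N with the mouse as a block, since C and N came from the same animals and their deviations correlated (0.25 to 0.75 over 4836 genes). CPM is UMIs of a gene per 1e+06 UMIs of the mouse. Phase classes used the Seurat lists (43 S and 54 G2/M genes) and needed 20 cells per mouse. Alternatives were DESeq2 1.42.0, library totals, no filter on genes or cells, B1-8hi or dark zone cells alone, thinned cells, another hashtag rule, no experiment term, each experiment alone, only the groups compared, no block and leaving out each mouse. Dark zone cells had a dark zone score above their light zone score, both standardized within a library. C and N were thus each scored against themselves (52.1–63.0% and 50.9–60.6% of cells), so that alternative cannot match the zones of C and N. Summaries used Python 3.11.15, pandas 2.3.3, scipy 1.17.1 and scanpy 1.11.5. The members and gene lists were chosen with earlier results of these data known. Named genes are all members, up to 4 called genes per list with the largest absolute change, and the 8 genes most like a pattern. Another 2 mice listed for C and N had almost no hashtag UMIs and were not analysed here.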

Additional observations from a re-analysis of the deposited data

Results flagged for a closer look

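In 2 of 70 groups of a member, 1 mouse lay far from the others by Dixon's criterion, which chance meets in about 1 in 20 groups. Tcp1 was at 481.7 CPM in mouse M18 of the untreated group at 72 h, where the nearest mouse had 434.2 CPM. Cct7 was at 232.5 CPM in mouse M10 of the untreated group at 48 h, where the nearest had 203.5 CPM.

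The treatment effect differed between 48 h and 72 h for all 10 members by the edgeR test of the difference, with 18.5% of all genes called in that direction and 31.5% in either. The call was lost for Cct2 with thinned cells (0.18, adjusted p = 0.0906) or in the larger experiment alone (0.25, adjusted p = 0.0545), and for Cct4 (0.29, adjusted p = 0.119) and Cct6a (0.54, adjusted p = 0.0548) in the smaller experiment alone, all by edgeR. On the log2 scale the effect at 48 h was larger by 0.43 for Tcp1, 0.34 for Cct2, 0.43 for Cct3, 0.35 for Cct4, 0.40 for Cct5, 0.55 for Cct6a, 0.40 for Cct7, 0.47 for Cct8, 0.87 for Hspd1 and 0.66 for Hspe1.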

How the results depend on the processing

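At 48 h all 10 members were called higher under the 10 alternatives other than the smaller experiment alone, where 14.7% to 25.4% of all genes were higher, 8 in that experiment alone (10.7%), and 10 on leaving out each mouse (22.3% to 26.1%). At 72 h the count of members went from 0 to 2 with only the groups compared (3.84% of all genes lower), and leaving out 1 mouse gave 0 to 1. There the sign of small differences turned for Tcp1 (0.034 with thinned cells, 0.010 in the smaller experiment alone), Cct2 (-0.0039 in B1-8hi cells, and -9.7e-06 to 0.031 leaving out 1 mouse), Cct3 (0.096 with thinned cells, and -0.052 to 0.0015 leaving out 1 mouse) and Cct7 (0.025 with thinned cells), and the cause was not tested. In S class cells the 5 calls became 3 with library totals and 1 in the larger experiment alone. That experiment has fewer mice than both together. The differences of Cct2, Cct3, Cct7 and Cct8 were also smaller there, at 0.11, 0.18, 0.11 and 0.19. The cause of the lost calls was not tested.

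Without the replicate block, C against N still gave 10 of 10 members higher, and 7052 calls over all genes against 7596 with it. The pairing of C and N by animal changed no call of a member.

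Counts over all genes moved by over 1.5 times in these cases. Without the experiment term there were 2680 calls at 48 h, 217 at 72 h, 3104 between the treated groups, 5 and 77 between the untreated groups and 0 h, and 1222 for the difference of effects. The smaller experiment alone gave 2149, 22, 2661, 0, 3 and 768 in the same order. Thinned cells gave 472 at 72 h, 2938 between the treated groups, 189 for untreated 72 h against 0 h and 1843 for the difference. B1-8hi cells gave 4 for untreated 48 h against 0 h and 1984 for the difference. For untreated 48 h against 0 h, DESeq2 gave 23, no filter on genes 21 and leaving out a mouse 6 to 24. Only the groups compared gave 256 for untreated 72 h against 0 h. The larger experiment alone gave 212, 417 and 841 in G1, S and G2M class cells.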
